A study of Homo sapiens with 12 samples.

Results

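The genes PAX5, EBF1, TCF3, IKZF1, IKZF3, POU2AF1 and BCL11A encode transcription regulators that direct B-cell development. KDM2B binding at these 7 genes was read from chromatin immunoprecipitation followed by sequencing (ChIP-seq) of 7 human leukaemia cell lines. A KDM2B peak was assigned to a gene when it overlapped the gene's window, an hg19 interval given to the nearest kilobase that holds the gene and a margin on both sides. In all, 100 of the 79473 deposited peaks fell in the 7 windows. The groups, each with 1 KDM2B library and 1 peak list, were REH and SUP-B15 (B-ALL, acute lymphoblastic leukaemia of B-cell precursors), JURKAT, DND41, SIL-ALL and HPB-ALL (T-ALL, the corresponding disease of T-cell precursors) and K562, a line from a chronic myeloid leukaemia (CML). The labels do not give these lineages, which were taken from general knowledge. All lines were grown in IMDM with 10% FBS, untreated as far as the labels say, and were immunoprecipitated with one antibody to KDM2B. Each line derives from a single patient's leukaemia, so lineage and line cannot be told apart. The 5 input libraries of the series, from REH, SUP-B15, HPB-ALL, SIL-ALL and K562, were not analysed here. DND41 and JURKAT have no input library in the series.

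KDM2B is a histone demethylase with a CXXC zinc finger that binds CG dinucleotides when they are unmethylated, and it recruits a variant Polycomb repressive complex to CpG islands, the CG-rich stretches at many gene starts. In B-cell development TCF3, an E-protein of the basic helix-loop-helix class, acts with EBF1 to switch on early B-lineage genes, and PAX5 then commits the cell to the lineage. IKZF1 (Ikaros) and IKZF3 (Aiolos) are zinc finger proteins of one family that act in lymphoid cells more widely, POU2AF1 is a coactivator of octamer-binding factors in B cells, and BCL11A is a zinc finger repressor needed for early lymphoid cells and known in erythroid cells for silencing fetal globin.

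Because the CXXC domain reads CG dinucleotides, 1 promoter each of 4 members is shown with every CG in capitals. They are RefSeq promoters of build GRCh38.p14, from 250 bases before to 50 bases after an annotated start, all on the minus strand and written in the direction of the gene. The peak lists use another build, hg19, so whether a peak covers one of these stretches was not determined.
PAX5 (chr9:37034219-37034518): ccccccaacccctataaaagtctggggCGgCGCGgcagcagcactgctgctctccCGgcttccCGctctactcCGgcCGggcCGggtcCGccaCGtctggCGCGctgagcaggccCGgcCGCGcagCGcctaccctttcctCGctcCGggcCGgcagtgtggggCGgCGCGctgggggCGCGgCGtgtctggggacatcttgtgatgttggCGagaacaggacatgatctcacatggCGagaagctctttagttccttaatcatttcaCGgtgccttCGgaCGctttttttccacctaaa
EBF1 (chr5:159097907-159098206): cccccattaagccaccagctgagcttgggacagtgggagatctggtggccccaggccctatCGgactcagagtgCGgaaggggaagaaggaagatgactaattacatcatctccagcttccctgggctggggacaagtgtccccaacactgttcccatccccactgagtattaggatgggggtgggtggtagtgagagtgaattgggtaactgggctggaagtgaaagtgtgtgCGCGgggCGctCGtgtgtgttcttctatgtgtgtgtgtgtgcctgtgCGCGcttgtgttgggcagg
TCF3 (chr19:1652566-1652865): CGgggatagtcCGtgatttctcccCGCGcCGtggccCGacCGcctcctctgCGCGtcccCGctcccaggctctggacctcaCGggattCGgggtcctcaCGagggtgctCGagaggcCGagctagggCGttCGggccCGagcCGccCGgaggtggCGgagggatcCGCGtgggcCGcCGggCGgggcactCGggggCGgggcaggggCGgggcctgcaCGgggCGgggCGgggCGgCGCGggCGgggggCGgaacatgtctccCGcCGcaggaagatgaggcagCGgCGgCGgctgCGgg
BCL11A (chr2:60553875-60554174): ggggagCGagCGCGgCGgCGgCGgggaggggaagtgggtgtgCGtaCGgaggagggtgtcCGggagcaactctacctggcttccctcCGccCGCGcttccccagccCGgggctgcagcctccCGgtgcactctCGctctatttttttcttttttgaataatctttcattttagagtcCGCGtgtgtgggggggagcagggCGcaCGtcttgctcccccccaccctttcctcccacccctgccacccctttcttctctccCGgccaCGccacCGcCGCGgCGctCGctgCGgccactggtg

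The TCF3 promoter held 43 CG on the strand shown, a number that 4.98% of the 35116 promoters in the table reach. The PAX5 promoter held 30 CG, reached by 22.4%, and the BCL11A promoter shown held 27, reached by 28.2%. The EBF1 promoter held 8, below the median of 14 over the table, and 60.7% of all promoters reach it. The motif searched was CG, which reads the same on both strands and cannot overlap itself, and 96.0% of all promoters hold at least 1. IKZF1 had 3 promoters in the table, with 35, 3 and 0 CG, and BCL11A had 5, with 5 to 27. The table matched 5 of the 7 members. IKZF3 and POU2AF1 are named without a sequence.

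**Figure D1:**
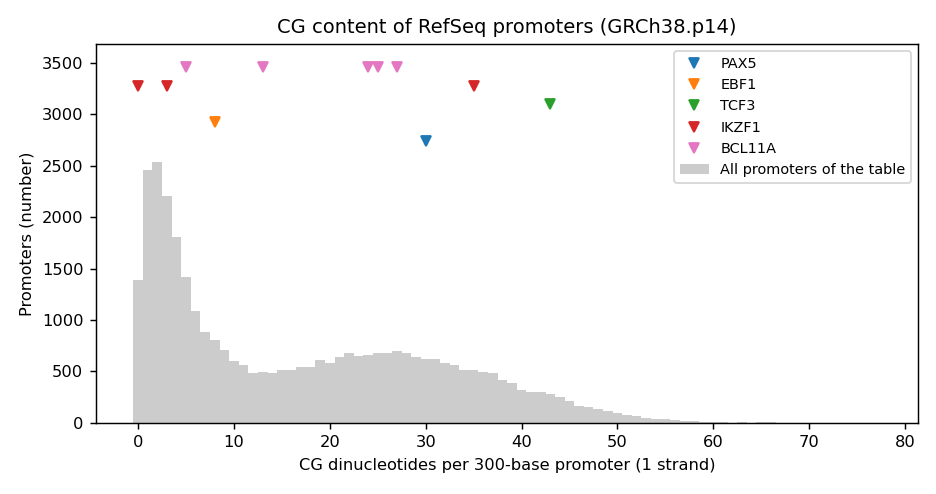
Number of CG dinucleotides per 300-base RefSeq promoter (x axis, counted on 1 strand) for all 35116 promoters (grey bars, y axis is the number of promoters) and for the 11 promoters of 5 members (triangles, placed above the bars by gene). The EBF1 promoter has 8 CG and the TCF3 promoter 43, and IKZF1 and BCL11A have both CG-poor and CG-rich promoters.

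The lists differed in length and in their lowest score, and this bears on every count below. They held 8146 peaks in REH, 7533 in SUP-B15, 14944 in DND41, 12765 in HPB-ALL, 14839 in JURKAT, 15304 in SIL-ALL and 5942 in K562. The lowest score was 50.01 in REH and 50 in SUP-B15, against 60 in DND41, 80 in HPB-ALL, 50.01 in JURKAT, 80.03 in SIL-ALL and 50 in K562. Scores are the authors' own values, have no stated unit, and are used here as percentiles within a list. The depth of the libraries is unknown and no line has a replicate, so no error can be given for the number of peaks of 1 line.

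Every member had a KDM2B peak in at least 3 of the 7 lines. REH had a peak at 4 of the 7 genes, SUP-B15 at 6, DND41 at 5, HPB-ALL at 5, JURKAT at all 7, SIL-ALL at 4 and K562 at 4. The only JURKAT peak at TCF3 lay about 2 kb from the downstream window edge, and whether it lies in TCF3 was not determined. As background, the hg19 chromosomes were divided into tiles of 117 kb, the median width of the windows. A tile held a peak in 14.5% of cases for REH, 13.3% for SUP-B15, 20.4% for DND41, 20.2% for HPB-ALL, 22.3% for JURKAT, 21.6% for SIL-ALL and 12.8% for K562. The counts of genes with a peak therefore stood above what tiles of this width hold in every list, although a tile may hold no gene, whereas each window was drawn around a gene. IKZF3 and BCL11A had a peak in all 7 lines, as had 4.18% of the 117 kb tiles. The REH and SUP-B15 peaks at IKZF3 all lay 0.943 to 3.64 kb from the downstream window edge. Whether they lie in that gene was not determined.

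The number of peaks over all windows was 4 in REH and 16 in SUP-B15, against 20 in DND41, 20 in HPB-ALL, 18 in JURKAT, 15 in SIL-ALL and 7 in K562. Per 1000 peaks of the list this was 0.491 in REH and 2.12 in SUP-B15, against 1.34 in DND41, 1.57 in HPB-ALL, 1.21 in JURKAT, 0.980 in SIL-ALL and 1.18 in K562. The B-ALL lines thus stood at the lowest and the highest end, with the other lines between them. The peak density of the windows was 1.38 times that of the whole list in REH and 5.97 times in SUP-B15, against 2.75 times (SIL-ALL) to 4.40 times (HPB-ALL) in the other lines. Neighbouring peaks of 1 list were common: with gaps of up to 500 bp bridged, the 100 peaks became 59, with 4 in REH, 8 in SUP-B15, 9 in DND41, 12 in HPB-ALL, 11 in JURKAT, 10 in SIL-ALL and 5 in K562. Peaks also lay close together outside the windows. Merging overlapping peaks of all lists gave 29071 stretches, and bridging gaps of up to 500 bp as well gave 19022. In the windows these numbers were 30 and 16.

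**Figure D2:**
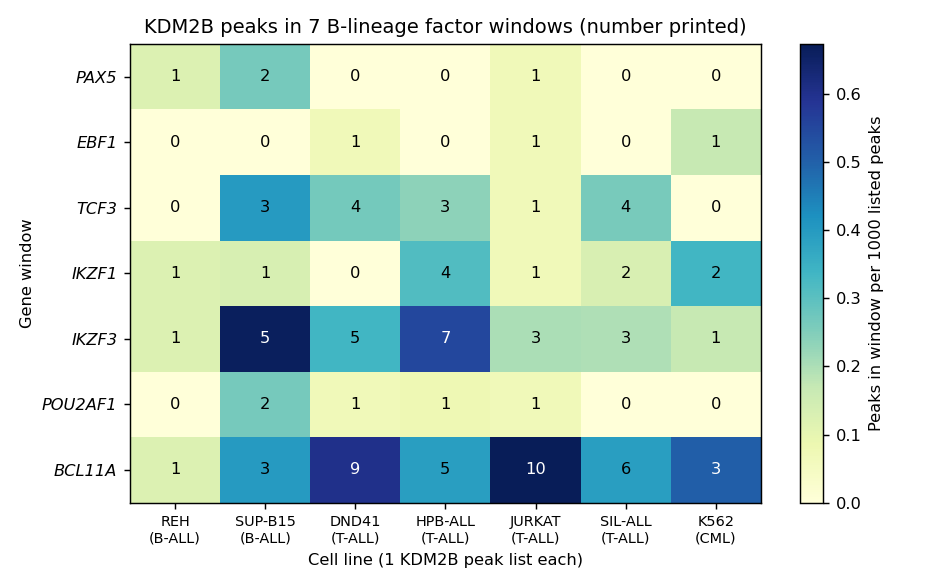
Number of KDM2B peaks (printed) in the window of each gene (rows) in each line (columns), coloured by peaks per 1000 peaks of the line's list. BCL11A and IKZF3 have at least 1 peak in every line, PAX5 and EBF1 have none in 4 lines, and the REH column never exceeds 1.

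The peaks of REH were also low in their list. Its 4 peaks lay at PAX5, IKZF1, IKZF3 and BCL11A with scores of 57.8, 55.6, 60.2 and 57.8, close to the lowest score of the list, and its highest percentile was 36.7. In SUP-B15 the highest was percentile 80.2, at IKZF3. The other lines each had at least 1 window peak at or above percentile 90. These were 4 of 20 in DND41, 1 of 20 in HPB-ALL, 4 of 18 in JURKAT, 3 of 15 in SIL-ALL and 1 of 7 in K562. REH had 0 of 4 and SUP-B15 0 of 16. By construction the same small share of every list stands at or above percentile 90. A count of 0 among so few peaks therefore does not set a line apart. Percentiles are ranks in lists of unequal length and do not compare the strength of a site between lines.

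Per length, BCL11A had most peaks and EBF1 fewest. The mean over the lines was 4.94 ± 3.09 peaks per 100 kb of window at BCL11A (SD, n = 7 lines), 3.97 ± 3.28 at TCF3 and 3.05 ± 1.90 at IKZF3. It was 1.88 ± 1.99 at POU2AF1, 1.13 ± 0.915 at IKZF1, 0.270 ± 0.371 at PAX5 and 0.104 ± 0.129 at EBF1. No neighbours in this order differed by more than the larger of their SDs. The ends were apart: BCL11A had 0.935 to 9.35 peaks per 100 kb and EBF1 0 to 0.242, with no overlap between the lines.

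PAX5, the commitment factor of the B lineage, had a peak in both B-ALL lines. The window (hg19, chromosome 9, 36828000 to 37040000) held 1 peak in REH and 2 in SUP-B15, against 1 in JURKAT and 0 in DND41, HPB-ALL, SIL-ALL and K562. The REH peak spanned 37035449 to 37035610 (percentile 30.1), and the SUP-B15 peaks spanned 37029302 to 37029687 (percentile 23.3) and 37036501 to 37036818 (27.0). The JURKAT peak spanned 37036992 to 37037278 (62.8). No peak of one line overlapped a peak of another, so the window had 4 separate sites of 1 line each, all within 10.7 kb of the window edge on the side where the gene starts. A peak in 3 or more lines was found in 31.5% of the tiles of this width, so the number of lines was not unusual for the width.

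EBF1, the early B-cell factor, had no peak in either B-ALL line. The window (chromosome 5, 158118000 to 158532000) held 1 peak each in DND41, JURKAT and K562 and 0 in HPB-ALL and SIL-ALL. These 3 peaks overlapped in 1 region, 158525769 to 158526739. A region here is a run of peaks in which each overlaps the next, so 2 lines in a region need not overlap each other. Score percentiles of the EBF1 peaks were 77.4 in DND41, 96.7 in JURKAT and 61.2 in K562. A peak in 3 or more lines was found in 44.6% of tiles of this width, the widest of the 7, and in 6 of the 7 lists the window held fewer peaks than such tiles on average. The tile mean was 1.11 peaks in REH and 1.03 in SUP-B15, against 2.03 in DND41, 1.74 in HPB-ALL, 2.02 in JURKAT, 2.08 in SIL-ALL and 0.811 in K562.

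TCF3, the E-protein gene, had 3 peaks in SUP-B15 and 0 in REH, against 4 in DND41, 3 in HPB-ALL, 1 in JURKAT, 4 in SIL-ALL and 0 in K562 (window on chromosome 19, 1604000 to 1658000). A peak in 5 or more lines was found in 6.33% of tiles of this width. The leading site, 1651712 to 1652228, held peaks of SUP-B15 (percentile 70.9), DND41, HPB-ALL and SIL-ALL (84.8) and had its middle 6.03 kb from the upstream window edge. Next to it a region at 1651069 to 1651680 held peaks of DND41, HPB-ALL and SIL-ALL. SUP-B15 had its other 2 peaks at 1647123 to 1647357 and 1647822 to 1648115, where no other line had one. A second region of 4 lines, 1605516 to 1606084, held peaks of all 4 T-ALL lines and of neither B-ALL line nor K562. It lay at the far end of the window, 1.52 to 2.08 kb from the edge that faces the neighbouring gene UQCR11, a mitochondrial respiratory chain gene, and whether it lies in TCF3 was not determined.

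IKZF1 had 1 peak in REH and 1 in SUP-B15, against 0 in DND41, 4 in HPB-ALL, 1 in JURKAT, 2 in SIL-ALL and 2 in K562 (window on chromosome 7, 50339000 to 50478000). A peak in 6 or more lines was found in 10.1% of tiles of this width. One region of 1128 bp, 50343248 to 50344375, held peaks of 5 lines: REH (percentile 24.0), SUP-B15 (71.4), HPB-ALL (91.3), SIL-ALL (94.0) and K562 (60). The REH and SUP-B15 peaks in it did not overlap each other and were joined through peaks of other lines. The JURKAT peak at 50344479 to 50344646 lay just outside it at percentile 10.6, and a lone HPB-ALL peak lay deep in the window at 50428213 to 50428478.

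IKZF3, the second Ikaros family member, had 1 peak in REH and 5 in SUP-B15, against 5 in DND41, 7 in HPB-ALL, 3 in JURKAT, 3 in SIL-ALL and 1 in K562 (window on chromosome 17, 37909000 to 38026000). In contrast to the other members, most of its peaks lay at the downstream end. The region of 37909944 to 37911801 held peaks of 6 lines, all but K562, with percentiles of up to 36.7 in REH, 48.1 in SUP-B15, 95.2 in SIL-ALL, 97.1 in DND41, 0.64 in JURKAT and 84.8 in HPB-ALL. Beside it lay a region of 4 lines (37911831 to 37912150) and one of SUP-B15 and HPB-ALL (37912155 to 37912640), so the whole cluster sat 0.943 to 3.64 kb from the edge that faces the neighbouring gene GRB7. The window is 10.4 kb longer than the RefSeq gene in GRCh38.p14, so if the margins are alike at both ends the cluster lies past the end of IKZF3, which was not determined in hg19. A further region, 37969943 to 37970403, held peaks of all 4 T-ALL lines and of no other line. At the upstream end, HPB-ALL, JURKAT and K562 shared a weak site (38020444 to 38020864; mean percentile 17.3).

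POU2AF1, the coactivator gene, had 0 peaks in REH and 2 in SUP-B15, against 1 in DND41, 1 in HPB-ALL, 1 in JURKAT, 0 in SIL-ALL and 0 in K562 (window on chromosome 11, 111218000 to 111256000). A peak in 4 or more lines was found in 6.42% of tiles of this width. All 5 peaks lay between 111249797 and 111250967. The region 111249797 to 111250597 held peaks of SUP-B15 (percentile 59.0), DND41 (80.6), HPB-ALL (8.77) and JURKAT (24.8), and the second SUP-B15 peak followed it at percentile 3.57.

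BCL11A was the member with most peaks and held the highest-ranked peak of the 7 windows. It had 1 peak in REH and 3 in SUP-B15, against 9 in DND41, 5 in HPB-ALL, 10 in JURKAT, 6 in SIL-ALL and 3 in K562, all within 10 kb of the upstream edge of the window (chromosome 2, 60679000 to 60786000). A peak in all 7 lines was found in 3.74% of tiles of this width. The peaks covered 188 bp in REH and 1289 bp in SUP-B15, against 3915 bp in DND41, 1737 bp in HPB-ALL, 5499 bp in JURKAT, 2474 bp in SIL-ALL and 1987 bp in K562. In bases covered, the B-ALL lines were thus below all others. Per megabase of listed peaks the peaks of BCL11A covered 235 bases on average in B-ALL lines and 698 in the other lines (exact permutation p = 0.0952, two-sided).

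The main BCL11A region, 60780743 to 60783132, held 13 peaks of 6 lines, all but REH, and was a single peak of 2390 bp in JURKAT. The best peak in it had a score of 88.7 in SUP-B15 (percentile 62.7), against 815 in DND41 (98.5), 356 in HPB-ALL (87.3), 1156 in JURKAT (99.7), 1357 in SIL-ALL (98.9) and 282 in K562 (91.4). These were the highest percentiles of any peak in the 7 windows in DND41, JURKAT, SIL-ALL and K562. The REH peak lay elsewhere, at 60778325 to 60778512, in a region it shared with DND41 and JURKAT. Further into the window, peaks of the T-ALL lines, with 1 of REH and 1 of K562, formed a row of sites between 60776403 and 60780017, of which 60778876 to 60779276 held all 4 T-ALL lines and no other line.

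**Figure D3:**
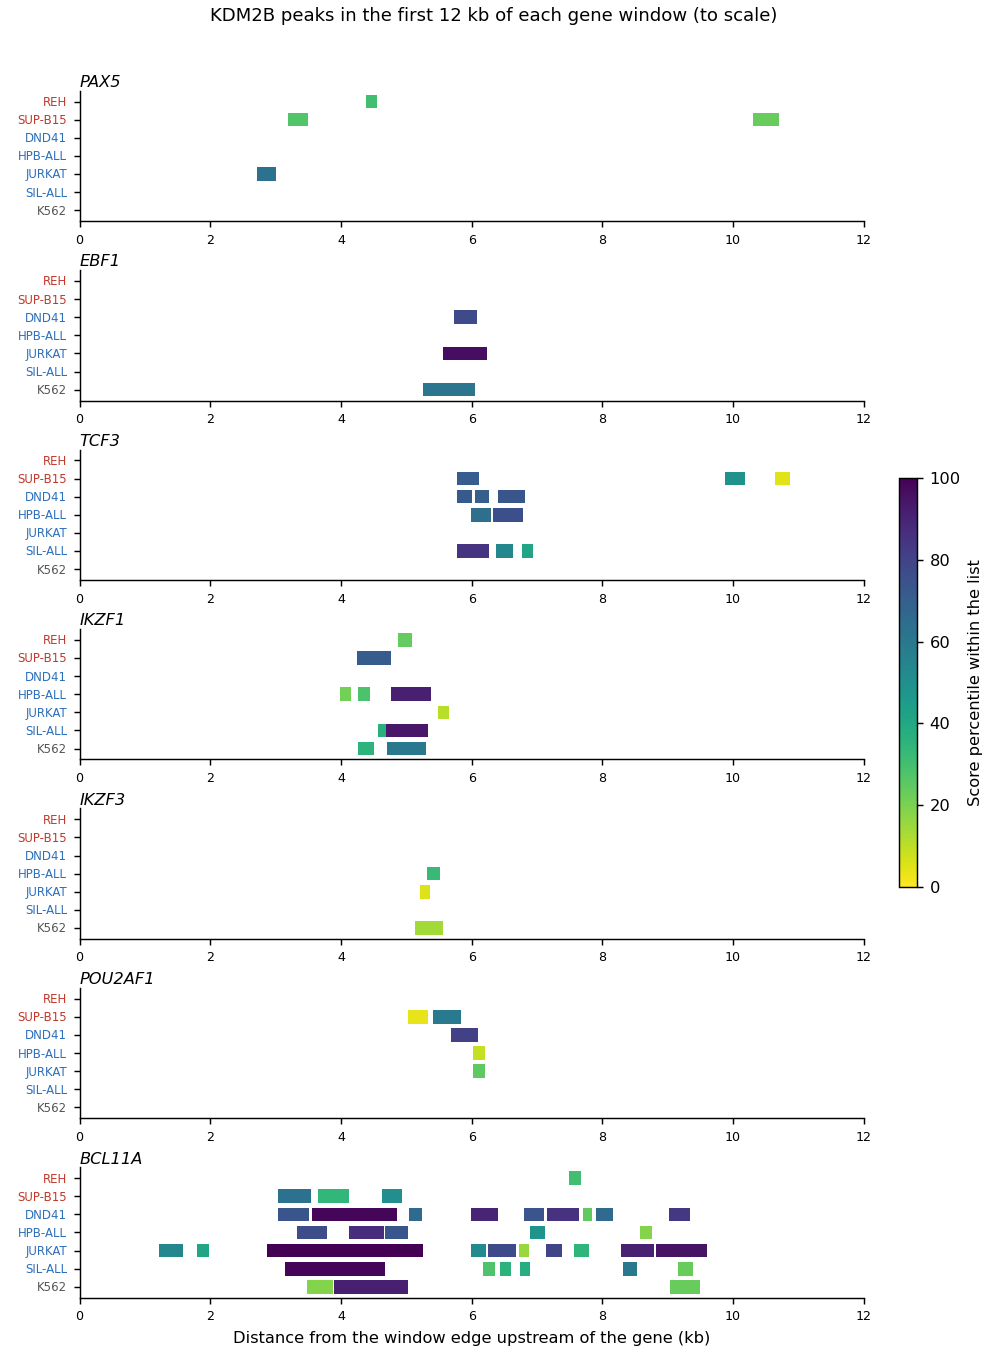
Position of the KDM2B peaks in the first 12 kb of each window, counted from the edge upstream of the gene (x axis in kb, bars to scale), by line (rows) and coloured by score percentile within the list. Peaks of different lines stack at about 4 to 7 kb in EBF1, TCF3, IKZF1 and POU2AF1, do not overlap in PAX5, and fill much of the first 10 kb in BCL11A.

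Most peaks of the 7 windows lay near the window edge upstream of the gene. The start of each gene was not placed in hg19, so distances are from that edge. All 7 genes had a peak of at least 1 line in the first 10 kb of the window, which includes a margin before the gene, and 5.88% of all 10 kb tiles of the genome held a peak of any line. This segment makes up 6.48% of the summed windows and held 71 of the 100 peaks: 3 of 4 at PAX5, 3 of 3 at EBF1, 10 of 15 at TCF3, 10 of 11 at IKZF1, 3 of 25 at IKZF3, 5 of 5 at POU2AF1 and 37 of 37 at BCL11A. With the first 5 kb alone, 3 genes (PAX5, IKZF1 and BCL11A) had a peak. The remaining peaks were mostly at IKZF3, with others at TCF3, 1 peak of HPB-ALL at IKZF1 and 1 of SUP-B15 at PAX5.

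**Figure D4:**
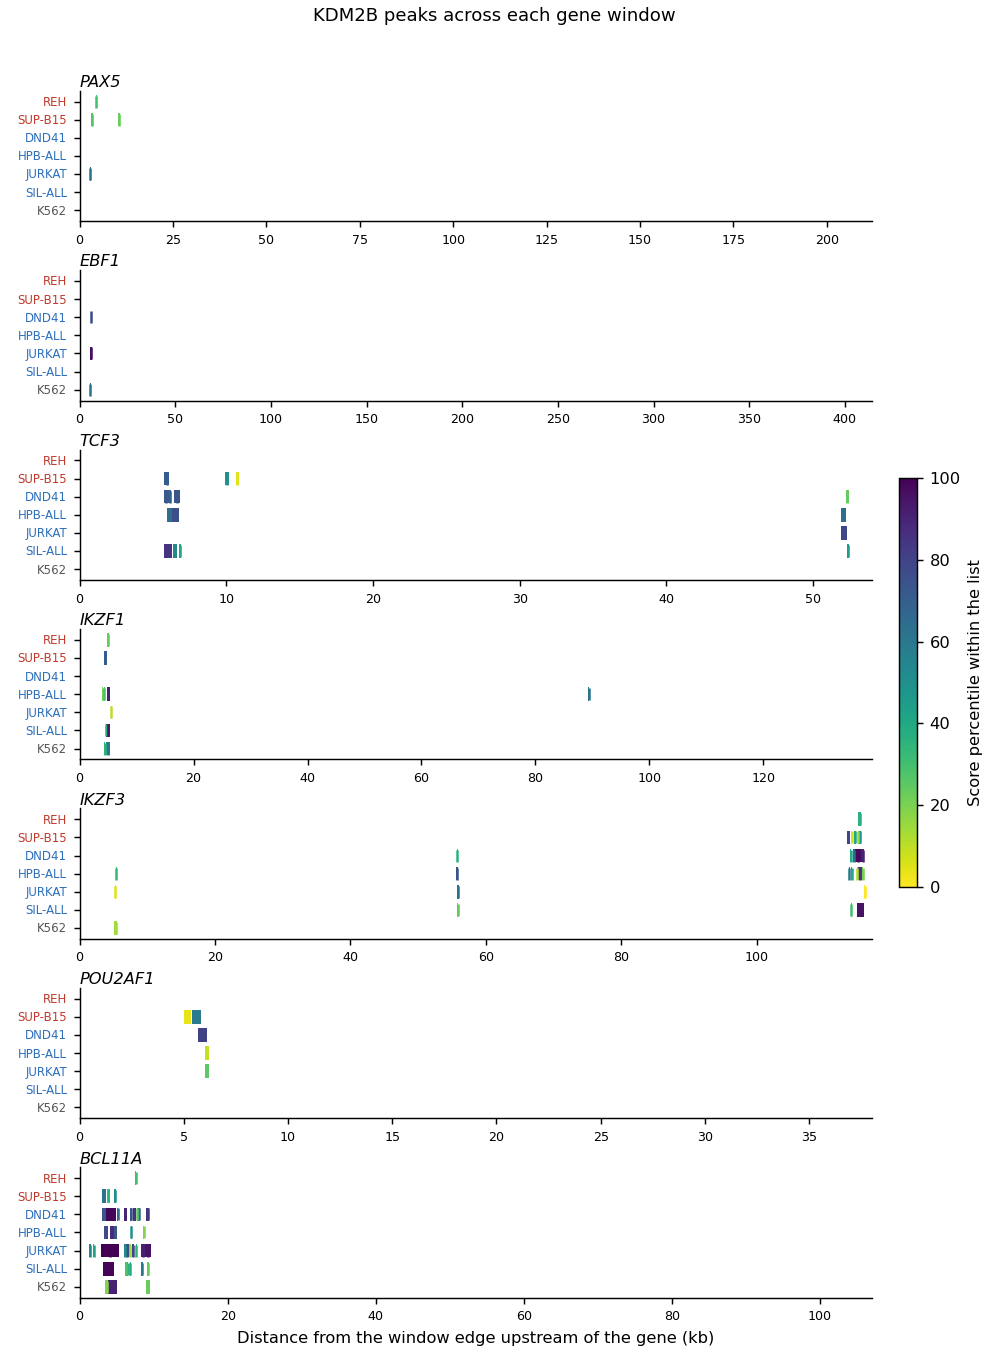
KDM2B peaks across the full width of each window (x axis: distance in kb from the edge upstream of the gene, on a separate scale per gene; a tick marks each peak's midpoint), by line and coloured by score percentile. Peaks gather at the upstream end in 6 genes, whereas IKZF3 has its densest cluster at the downstream end, beyond 113 kb.

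The 100 peaks merged into 30 regions when peaks of different lines that shared at least 1 bp were joined. Of these, 10 (33.3%) held a peak of 4 or more lines, compared with 17.4% of the 29071 regions of the whole series. With the common score floor these were 3 of 23 regions (13%), against 15.4% of all regions. With lists cut to equal length they were 4 of 23 (17.4%), against 18.2%, so the higher share in the windows was not present under either. It was present with gaps of up to 500 bp bridged, at 8 of 16 regions (50%), against 27.5% of 19022. None of the 30 regions held all 7 lines, although IKZF3 and BCL11A each had a peak in every line. No B-ALL line was present in 16 regions (53.3%), against 65.2% of all regions, and 6 regions (20%) held a B-ALL line and no other line, against 14.5%. None of these was common to REH and SUP-B15, a kind of region that makes up 1.07% of all. The 6 regions of 1 B-ALL line comprised 3 at PAX5, 2 at TCF3 and 1 at POU2AF1, of which 5 belonged to SUP-B15 and 1 to REH. All 6 scored below the common floor of 80.03, the highest at 74.98 (SUP-B15, TCF3), so none remained under it. Regions of all 4 T-ALL lines and no other line were found at TCF3, IKZF3 and BCL11A, 1 at each (10% of the 30 regions), and made up 2.25% of all regions. Each had a peak below the common floor: DND41 at TCF3 (score 71.3) and IKZF3 (79.2), and JURKAT at BCL11A (58.1). None of these regions therefore kept all 4 T-ALL lines under that floor. For regions of B-ALL lines alone or of all 4 T-ALL lines alone, the whole-series share under the floor was not determined.

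REH and SUP-B15 were set against the 5 other lines gene by gene, in peaks per 1000 listed peaks, which asks whether KDM2B binding at B-lineage factor genes differs in cells of the B lineage. PAX5 was the 1 gene of 7 at which both B-ALL lines stood above all other lines, and 5.02% of the 117 kb tiles with a peak in any line showed the same. It had 0.123 in REH and 0.265 in SUP-B15, against 0.0674 in JURKAT and 0 in the other 4 lines. The mean was 0.194 ± 0.101 (SD, n = 2) in B-ALL and 0.0135 ± 0.0301 (SD, n = 5) in the rest. The difference was 0.181 (exact permutation p = 0.0476, two-sided, the smallest value that the 21 splits allow). It was 0.109 without SUP-B15 and 0.252 without REH. Of the tiles of the PAX5 width with a peak, 7.36% had a p under 0.05. After Benjamini-Hochberg adjustment over these 6728 tiles the exact permutation p of PAX5 was 0.646. Because the 21 splits limit the smallest p, no gene could pass this adjustment, so it does not decide whether PAX5 differs. In peak number as deposited REH and JURKAT were equal (exact permutation p = 0.0952). With a common score floor the B-ALL lines kept no PAX5 peak, and the difference was then -0.027.

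At the other 6 genes the lines overlapped. BCL11A had 0.123 in REH and 0.398 in SUP-B15, against 0.392 to 0.674 in the others. Its means were 0.261 ± 0.195 (SD, n = 2) in B-ALL and 0.513 ± 0.126 (SD, n = 5) in the rest. This was a difference of -0.252 with an exact permutation p of 0.190 (two-sided). Adjusted over the tiles of its width the exact permutation p was 0.894, an adjustment that no gene could pass. The difference was -0.115 without REH and -0.39 without SUP-B15. When peaks within 500 bp were counted as 1, BCL11A had 1 in REH and 1 in SUP-B15, against 3 in DND41, 3 in HPB-ALL, 3 in JURKAT, 4 in SIL-ALL and 2 in K562. The difference was then -0.211 per 1000 peaks of the joined lists and reached the smallest p (exact permutation p = 0.0476). For joined peaks, the share of tiles with such a p was not determined. No gene had both B-ALL lines below all others in peaks per 1000 listed peaks as deposited, a pattern of 4.33% of tiles.

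EBF1 averaged 0 in B-ALL lines and 0.0605 ± 0.0690 in the others (exact permutation p = 0.381, two-sided). IKZF1 averaged 0.128 ± 0.00706 in B-ALL lines and 0.170 ± 0.149 in the others (exact permutation p = 0.857). Without K562 the difference at EBF1 was -0.0336 in place of -0.0605, and that at IKZF1 -0.000103 in place of -0.0418. At IKZF1 it was -0.00591 without HPB-ALL, -0.0843 without DND41 and -0.0674 without JURKAT. For TCF3, IKZF3 and POU2AF1 the B-ALL mean was the higher, with exact permutation p-values of 0.905, 0.667 and 0.429, and the B-ALL lines stood at opposite ends: at each of these genes SUP-B15 was the highest of the 7 lines and REH the lowest or level with the lowest. Without SUP-B15 the difference changed sign at all 3, to -0.166, -0.167 and -0.0425, and at TCF3 also without K562, to -0.00874. All B-ALL peaks at IKZF3 lay in the cluster at the downstream window edge, and whether they lie in the gene was not determined. The place of SUP-B15 at IKZF3 depended on counting neighbouring peaks apart. With peaks within 500 bp joined, IKZF3 had 1 in REH and 1 in SUP-B15, against 2 in DND41, 4 in HPB-ALL, 3 in JURKAT, 3 in SIL-ALL and 1 in K562. Per 1000 peaks of the joined lists both B-ALL lines were then below all others, with a difference of -0.146. A p above the threshold in 2 lines against 5 does not show that the lineages are alike.

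**Figure D5:**
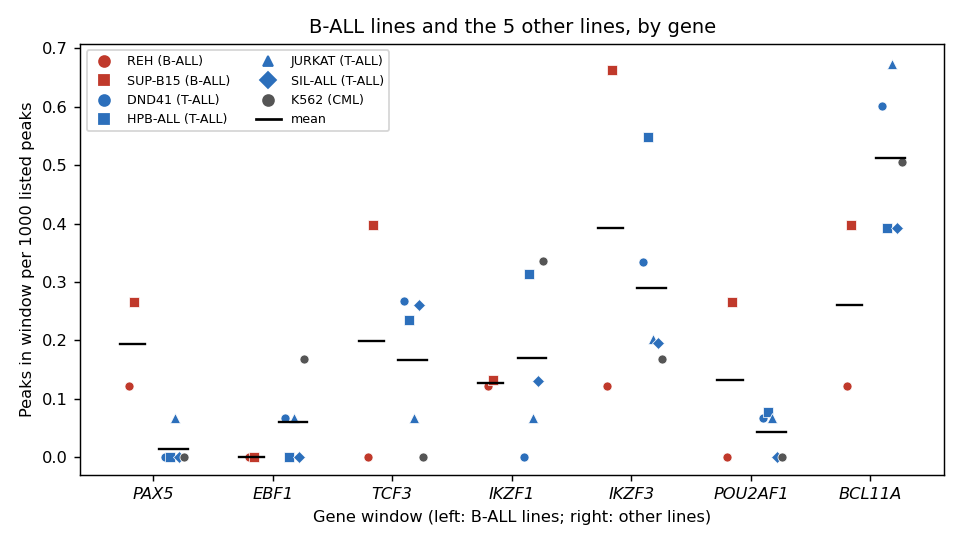
Peaks in each gene window per 1000 peaks of the list (y axis), with the B-ALL lines (red, left) and the 5 other lines (T-ALL blue, K562 grey, right) as points and the mean of each side as a black line. At PAX5 both B-ALL points lie above all others, while at TCF3, IKZF3 and POU2AF1 the SUP-B15 square is highest and the REH circle lowest or level with the lowest. Peaks are counted as deposited, with neighbouring peaks of a list not joined.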

How the data were processed

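The deposited KDM2B peak lists of 7 lines were used, each with position, name and score per peak. Per the submitters' processing notes, tools were FastQC 0.10.1 and Bowtie 1.1.1 and the build hg19. The peak names point to MACS; the sources used here give no version, control or threshold for it. The score is the authors' own deposited value with no unit, and was used only to rank or filter peaks. No peak overlapped another of its list. Positions are counted from 1.

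Members, windows and tests were chosen with earlier results of these data known. A peak counted for a window on at least 1 bp of overlap. Each window was described with its peak number in every line and, as named regions, that of most lines, those of 6 lines and those of both B-ALL lines alone. Gene strand came from the RefSeq promoter table (GRCh38.p14), and for IKZF3 and POU2AF1 from background knowledge. RefSeq gave no hg19 coordinates, so peaks were not assigned to promoters or exons, and the planned list of other B-lineage genes was not run. REH and SUP-B15 were set against 5 lines by an exact permutation test over 21 splits, checked on simulated lists; the lines carry no replicates, so line and library effects enter the p-values together. Tiles covered chromosomes 1 to 22 and X, with lengths from circlize 0.4.16. Computations used Python 3.11.15, numpy 2.4.6, pandas 2.3.3 and R 4.3.3, and figures matplotlib 3.10.9.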

Additional observations from a re-analysis of the deposited data

Results flagged for a closer look

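Over the 7 lines, 15 quantities were screened for 1 line set apart by a wide gap, and 3 met this. The nominal rate of about 1 in 20 would give 0.75. That rate holds for continuous values, whereas all 3 flagged quantities rest on few peaks and are 0 in 3 or 4 lines. The 3 are therefore not read as an excess. SUP-B15 stood high at POU2AF1, with 0.265 peaks per 1000 listed peaks, against 0.0783 in the next line, HPB-ALL, and 0 at the low end. SUP-B15 also had 0.332% of the PAX5 window covered by peaks, against 0.135% in JURKAT, the next, and 0 at the low end. K562 stood high at EBF1, with 0.168 peaks per 1000 listed peaks, against 0.0674 in JURKAT and 0 at the low end. The K562 value is 1 peak, as many as in DND41 and JURKAT, in the shortest list. The SUP-B15 value at POU2AF1 is 2 peaks, against 1 in DND41, HPB-ALL and JURKAT, and its second peak stood at percentile 3.57. With peaks within 500 bp joined, each of these lines had 1 peak there. At PAX5 the SUP-B15 value is 2 peaks, against 1 in JURKAT.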

How the results depend on the processing

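Alternatives gave 221 values. Of those for counts of genes or regions, 81 stayed within 1.5 times the main count and 21 moved. With a common score floor of 80.03, or with peaks at or above the median of their list, REH had a peak at 0 genes in place of 4, 0 genes had a peak in all lines in place of 2, and 0 genes had both B-ALL lines above all others in place of 1. The common floor also gave 1 gene with both below (BCL11A) and 3 of 23 regions with 4 or more lines in place of 10 of 30. Equal lists of 5942 peaks gave 4 of 23 such regions and 0 genes above, and peak number as deposited 0 genes above. Windows narrowed by 5 kb on each side left a peak at 2 genes in REH, 3 in SUP-B15 and 5 in JURKAT. With these windows 0 genes had a peak in all lines, 0 genes were above and 2 below (IKZF3, BCL11A). The number below was also 2 with peaks within 500 bp joined and 1 with covered bases. With DND41, HPB-ALL, JURKAT, SIL-ALL or K562 left out, the number above stayed at 1 (PAX5) and the number below at 0. Without REH or SUP-B15 only 1 B-ALL line remained. The count there no longer asks for both B-ALL lines and is easier to reach, so it is not given, although it enters the tally above. The first 5 kb in place of 10 left 3 genes with a peak in that segment.

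Differences by gene, B-ALL minus other lines, changed sign in 20 values, kept direction and side of the threshold in 86, kept direction but lost the threshold in 11 (all at PAX5), and kept direction and passed it in 2 (BCL11A, with peaks joined or windows narrowed). PAX5 was -0.027 with the common floor and with peaks above the median, and lost the threshold there too. EBF1 was 0.00086 with windows widened by 20 kb, and IKZF1 0.0393 with peaks joined. TCF3 was -0.0407 with the common floor, -0.101 with equal lists, -0.121 with peaks above the median, -0.0361 with widened windows, -0.9 in peak number, -36.1 in covered bases and -0.00874 against T-ALL lines alone. IKZF3 was -0.111 with the common floor, -0.0947 above the median, -0.146 with peaks joined, -0.118 with narrowed windows (exact permutation p = 0.0476, which passed) and -0.8 in peak number. With a line left out, the differences ranged from -0.166 to 0.232 at TCF3, from -0.167 to 0.374 at IKZF3 and from -0.0425 to 0.223 at POU2AF1. With 6 lines the smallest p is 0.0667 or 0.167, so no p there could pass. These runs are part of the tally, so for them losing the threshold at PAX5, or staying above it elsewhere, was fixed in advance. B-ALL against T-ALL lines alone is the same comparison as leaving out K562, and the tally holds it under both names. The cause of these changes was not tested. No paired analysis was possible because there is 1 list for each line. Leaving out a line was not run for genes per line, which it cannot change.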
